A study of Mus musculus with 472 samples.

Results

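Cells that express the smooth muscle contractile program were examined in single-cell RNA sequencing of mouse leptomeninges, the pia and arachnoid membranes on the surface of the brain. A cell was taken as contractile when at least 500 genes were counted in it and at least 3 of 6 marker genes had a count. The markers were Acta2, Myh11, Tagln, Myl9, Cnn1 and Des. The rule found 96 contractile cells among the 472 deposited, 47 in full-length libraries, where they were 25.0% of the cells with at least 500 genes, and 49 in 3-prime libraries, where they were 49 of 73. The library types are described apart throughout. The remaining cells with at least 500 genes are called the other cells and serve as the comparison, 9, 38, 46 and 48 in the full-length groups named below and 24 in the 3-prime libraries. They are a mixture that still holds weakly contractile cells, macrophages and endothelial cells.

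The cells came from C57BL/6 mice, with no genetic change or treatment named. A pool of 6 male mice was used at 3 months of age and another at 18 months, and meninges over the anterior and over the posterior cortex were taken separately. Full-length libraries hold 4 groups, written here as 3A, 3P, 18A and 18P for age in months and anterior or posterior. The 3-prime libraries hold 3A, 3P and 18P. Cells were dispensed with the ICELL8 system, which places them in the wells of a chip. No animal is named, so each group is 1 sample with no replicate, and neither a p-value nor a standard error can be given. Intervals are 95% exact. Those of shares cover the sampling of cells, those of ratios the counting of reads, and neither covers differences between mice. The reads have no molecular identifiers, so PCR copies are counted and the intervals of ratios can be too narrow. For 11 of the 47 full-length contractile cells (3 in 18A and 8 in 18P) the age field reads 3 months while the title reads 18, and they were grouped by title.

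Vascular smooth muscle cells wrap arteries and arterioles and set vessel width. When calcium rises in such a cell, calmodulin activates myosin light chain kinase, which phosphorylates the light chain Myl9, and the heavy chain Myh11 then pulls on filaments of smooth muscle actin, Acta2. Transgelin (Tagln) and calponin (Cnn1) bind actin, and desmin (Des) forms intermediate filaments. Nitric oxide from the endothelium relaxes the cell through soluble guanylate cyclase and cyclic GMP. Pericytes, their relatives on capillaries, share some of these genes. Most contractile genes are controlled by the factor SRF and its partner myocardin, which bind a short element called the CArG box.

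CArG boxes were looked for in the 250 bases before each gene's start (RefSeq promoters, GRCm38.p6, both strands), because the contractile genes move together in the results below. The motif was accepted exactly or with 1 other letter. Of the 6 markers, 4 matched a promoter entry. Acta2 and Myl9 held a match, Cnn1 and Des held none in this window, and Myh11 and Tagln had no entry. Acta2 lies on chromosome 19 (34241090 to 34255590, minus strand) and Myl9 on chromosome 2 (156775420 to 156781658, plus strand). The 30-base windows below are upstream of the RefSeq start, are read 5′ to 3′ on the gene's own strand, and carry the CArG box in capitals. The RefSeq start of Acta2 lies inside the wider GENCODE span given here, so its windows do too. Ldb3, an adaptor of actin-anchoring sites, and Vcl, the focal adhesion protein vinculin, are shown as non-marker genes with an exact match.
Acta2, chr19:34255388-34255417, minus strand, 1 other letter: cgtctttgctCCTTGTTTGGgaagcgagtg
Acta2, chr19:34255438-34255467, minus strand, 1 other letter: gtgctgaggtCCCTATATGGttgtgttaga
Myl9, chr2:156775293-156775322, plus strand, exact: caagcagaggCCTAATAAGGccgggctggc
Myl9, chr2:156775355-156775384, plus strand, 1 other letter: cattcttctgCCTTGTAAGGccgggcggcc
Vcl, chr14:20929161-20929190, plus strand, exact: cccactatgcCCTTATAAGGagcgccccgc
Ldb3, chr14:34588697-34588726, minus strand, exact: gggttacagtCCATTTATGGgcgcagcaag
Some genes have several promoter entries, and the entries of Ldb3 share 1 element. By gene, 4 of 26 other contractile genes described below (15.4%) held an exact match and 8 (30.8%) held 1 with at most 1 other letter. Among all 27025 genes the shares were 1.624% and 9.78%. A match describes the letters only and is not evidence of binding.

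Depth differed between the library types. Total counts per contractile cell ran from 2277 to 311211 with a median of 14096 in full-length libraries, and from 8946 to 331786 with a median of 47387 in 3-prime libraries. The medians for the other cells were 19338 and 28532. Predicted genes made of satellite repeats took 60.9% of the full-length counts of contractile cells and 70.0% of those of the other cells. In 3A the gap was widest, 36.4% against 68.9%. Mitochondrial genes took 26.1% of the 3-prime counts of contractile cells and 16.3% of the others'. Levels are CPM, the counts of a gene over all counts of the cells, scaled to 1e+06, so these shares enter every level, and the split of all genes without them in the totals is given with the comparison of contractile and other cells. No barcode or well position was shared between groups of a library type. The types are titled differently, by barcode and by position, so cells common to both could not be looked for.

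The 6 marker genes chose the cells, so their levels are a description and support nothing. Acta2 was counted in 39 of 47 full-length and 47 of 49 3-prime contractile cells. Its summed level in the full-length groups was 2822 CPM in 3A, 4487 in 3P, 237.7 in 18A and 1953 in 18P, and in the 3-prime groups 11324 in 3A, 4871 in 3P and 7481 in 18P. By the median over cells, Acta2 was at 1910 CPM in 3A, 8783 in 3P, 324.4 in 18A and 316.6 in 18P of the full-length groups, so 18A and 18P lay close by this measure. Myh11, the smooth muscle myosin heavy chain, was counted in 37 and 46 cells. Its full-length levels were 305.1 CPM in 3A, 1168 in 3P, 140 in 18A and 634 in 18P, and its 3-prime levels were 7772 in 3A, 4731 in 3P and 3311 in 18P. Myl9 was counted in 42 and 36 cells, and Tagln in 40 and 47. Des and Cnn1 were the sparse markers. Des was counted in 26 full-length and 19 3-prime cells, Cnn1 in 12 and 25. All 6 markers were counted together in 6 full-length and 12 3-prime cells. The most frequent full-length combination was Acta2, Myh11, Tagln and Myl9 without the other two, in 8 cells.

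Cells just inside the rule were not like cells well inside it. In full-length libraries the 15 cells with exactly 3 markers had a median summed marker level of 826 CPM, against 594 CPM in the 36 cells with 2 and 5077 CPM in the 15 cells with 4. In 3-prime libraries the medians were 879 CPM (14 cells with 3), 778 CPM (9 cells with 2) and 3353 CPM (9 cells with 4). The same step appeared in 32 other smooth muscle contractile genes that the rule did not read. Their median summed level per cell at 0 to 6 markers was 548, 665, 1075, 1318, 8850, 19355 and 21664 CPM in full-length libraries. In 3-prime libraries it was 469, 2347, 2470, 2845, 7370, 25182 and 28166 CPM. The level of these genes in cells with 3 markers was therefore nearer to that in cells with 2 than in cells with 4, in both library types. Tropomyosin Tpm1, which lies along the actin filament, was counted in 7 of 15 full-length cells with 3 markers and in 14 of 15 with 4, at 128.03 and 340 CPM. In 3-prime libraries it was counted in 4 of 14 cells with 3 markers and in 14 of 14 with 5.

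**Figure D1:**
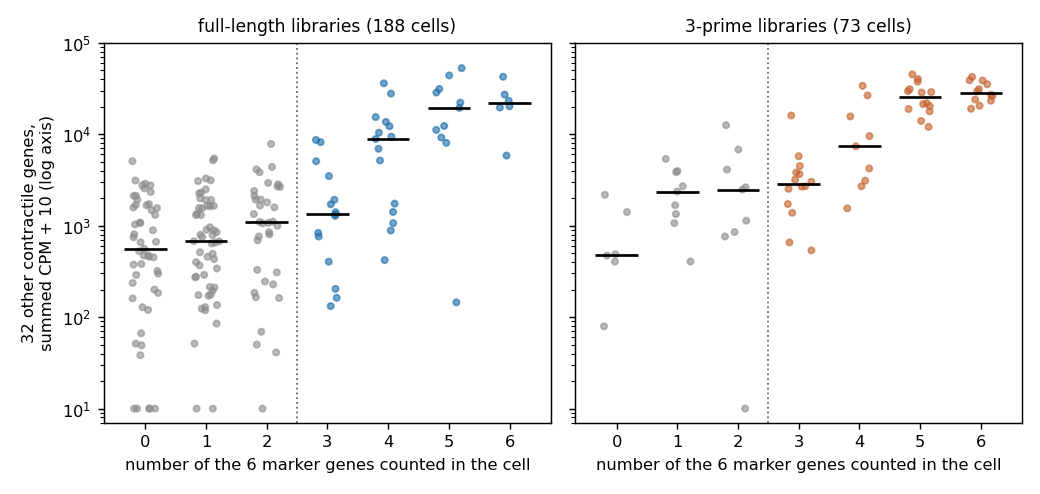
Summed CPM of 32 other contractile genes in each cell (log axis, 10 CPM added) against the number of the 6 marker genes counted, by library type; points are cells, bars are medians and the dotted line is the limit of 3 markers. The medians stay between 469 and 2845 CPM up to 3 markers and lie between 7370 and 28166 CPM from 4 markers on.

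The share of contractile cells was higher in 3-prime than in full-length libraries. It was 25.0% of full-length cells (47 cells, exact Clopper-Pearson interval 19.0 to 31.8%) and 67.1% of 3-prime cells (49 of 73, 55.1 to 77.7%). In full-length libraries it was 40.0% in 3A (6 of 15, 16.3 to 67.7%), 22.4% in 3P (11 of 49, 11.8 to 36.6%), 19.3% in 18A (11 of 57, 10.0 to 31.9%) and 28.4% in 18P (19 of 67, 18.0 to 40.7%). In 3-prime libraries it was 56.3% in 3A (9 of 16, 29.9 to 80.2%), 72.2% in 3P (13 of 18, 46.5 to 90.3%) and 69.2% in 18P (27 of 39, 52.4 to 82.98%). The intervals of the groups overlap within each library type, so no order of ages or regions can be read from them. Full-length titles also carry a number, 1 or 2, that the labels do not explain. Contractile cells were 3 of 8 and 3 of 7 in 3A for titles 1 and 2, 4 of 21 and 7 of 28 in 3P, 3 of 25 and 8 of 32 in 18A, and 9 of 35 and 10 of 32 in 18P.

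Shares also depend on depth. After every cell was thinned to 4500 counts, which left out 18 shallower full-length cells and no 3-prime cell, the share was 14.7% of full-length cells and 50.7% of 3-prime cells. By group it was then 35.7% in 3A, 9.52% in 3P, 9.62% in 18A and 17.7% in 18P, and 50.0%, 55.6% and 48.7% in the 3-prime groups 3A, 3P and 18P.

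**Figure D2:**
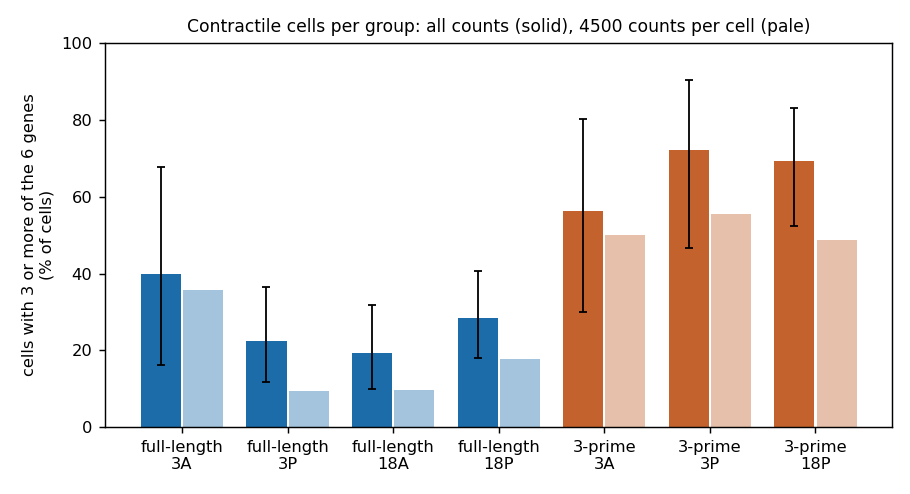
Percent of cells with at least 3 of the 6 marker genes in each group, with all counts (solid bars, with 95% exact Clopper-Pearson intervals) and after thinning each cell to 4500 counts (pale bars). All 3 groups of the 3-prime libraries lie above the 4 full-length groups, and intervals overlap within each library type.

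Counts of marker genes also appear in cells that should lack them. Among cells with at least 3 macrophage markers, Acta2 was counted in 16 of 47 full-length and 10 of 19 3-prime cells, and Tagln in 13 and 12. Their median totals were 21815 and 42964. Of these macrophage-marker cells, 7 of 47 (14.9%) in full-length and 7 of 19 (36.8%) in 3-prime libraries met the rule for contractile cells. In the 7 3-prime cells the median summed marker level was 872 CPM, against 18378 CPM in the other 42 contractile cells. In the 7 full-length cells it was 1148 CPM, against 6578 CPM in the other 40, a smaller gap. The highest full-length cell with macrophage markers reached 46636 CPM, so such markers and a high marker level also occurred together. The contractile cells are thus a set with a strong core and a fringe of cells with few marker counts, and no doublet caller was used.

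The comparison of contractile with other cells asked which further genes went with the markers. A gene was measured when it reached 10 CPM on either side, and it was called 2-fold when the log2 ratio of summed CPM, with 1 CPM added, passed 1 or -1. Of 11761 genes measured in full-length libraries, 37.7% were 2-fold higher in contractile cells and 19.6% lower, with a median log2 ratio of 0.52. Of 8738 in 3-prime libraries, 37.7% were higher and 35.6% lower, with a median of 0.06. These are the backgrounds for the counts below. With mitochondrial and satellite genes out of the totals, the full-length split was 23.8% higher and 38.0% lower of 21665 genes, and the median moved by -0.87 to -0.35. The 3-prime median moved by 0.27 to 0.33.

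Genes of the contractile apparatus other than the 6 markers were higher in contractile cells of both library types. Of 31 measured members of the list in full-length libraries, 25 were 2-fold higher and 1 was lower, with a median log2 ratio of 2.299 against 0.52 for all genes. Of 30 measured in 3-prime libraries, 29 were higher and 0 lower, with a median of 4.12 against 0.06. In 3-prime libraries 8 of these genes had no count in the other cells, and with them set at their lower bound the median was 3.24. The median stayed between 1.6698 and 3.25 in full-length and between 2.87 and 5.25 in 3-prime libraries under every processing alternative tried. The cells were chosen by genes of the same cells, so this is a description of them and no test.

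Among thin-filament genes Tpm1 is described first. In full-length contractile cells its level was 1017 CPM in 3A, 1225 in 3P, 157.3 in 18A and 412.9 in 18P, against 16.1, 30.0, 44.9 and 27.9 CPM in the other cells of those groups. In 3-prime contractile cells it was 2216 in 3A, 1095 in 3P and 1389 in 18P, against 0, 213.1 and 77.7 CPM. Contractile cells were above the other cells in each of the 7 groups, and the lowest contractile group in full-length libraries was 18A. The log2 ratio was 3.62 (3.42 to 3.89) in full-length and 4.17 (3.87 to 4.52) in 3-prime libraries. Tpm2, a second tropomyosin, had log2 ratios of 4.01 and 3.16. Cald1, caldesmon, which restrains myosin on actin, had ratios of 3.58 and 2.99 and was counted in 28 of 47 and 41 of 49 contractile cells. Lmod1, leiomodin, which starts actin filaments in smooth muscle, was at 0 in full-length 3A, at 135.3 CPM in 3P, 71.7 in 18A and 117.02 in 18P. In 3-prime contractile cells it was at 1202 CPM in 3A, 609 in 3P and 1004 in 18P, with 0 counts in the 24 other cells, which gives at least a 312.2-fold higher level.

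Csrp1, a LIM protein of smooth muscle that binds actin-anchoring sites, had the highest full-length ratio among the genes picked by the naming rule. Its levels in contractile cells were 330.5 CPM in 3A, 669 in 3P, 82.2 in 18A and 208.5 in 18P, against 62.3, 4.19, 0 and 11.4 CPM in the other cells. The log2 ratio was 4.31 (4.03 to 4.88), and in 3-prime libraries it was 2.602 (1.94 to 3.53). Its level followed the number of markers, from 19.8 CPM in full-length cells with 3 to 1770 CPM in cells with 6. The actin crosslinker Flna (filamin A) had ratios of 2.654 and 4.31, and Nexn (nexilin) 3.55 and 4.63. The kinase Mylk, which phosphorylates the light chain, had ratios of 2.299 and 2.81. Its full-length levels were 699 CPM in 3A, 769 in 3P, 57.7 in 18A and 334.9 in 18P. Dstn, destrin, which takes actin filaments apart, had ratios of 2.06 and 2.03. Sorbs2, an adaptor between the cytoskeleton and adhesion sites, had 4.29 and 5.01.

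The exceptions on the list had few counts. In full-length libraries Fbxl22 was the gene 2-fold lower, at 5.86 against 13.9 CPM, with counts in 4 contractile cells. Smtn (smoothelin) was at 15.0 against 14.3 CPM there, but at 210 against 32.2 CPM in 3-prime libraries. Actg2, the enteric smooth muscle actin, was counted in 6 full-length and 3 3-prime contractile cells. Actg2, Acta1 and Actc1 are close in sequence to Acta2, so reads may have been divided among them and their levels are uncertain. The skeletal and cardiac actins Acta1 and Actc1 were counted in 1 full-length contractile cell each and in no 3-prime cell. Of 21 striated muscle genes, 7 were measured in full-length libraries, 0 of them 2-fold higher and 2 lower, and none reached 10 CPM in 3-prime libraries.

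**Figure D3:**
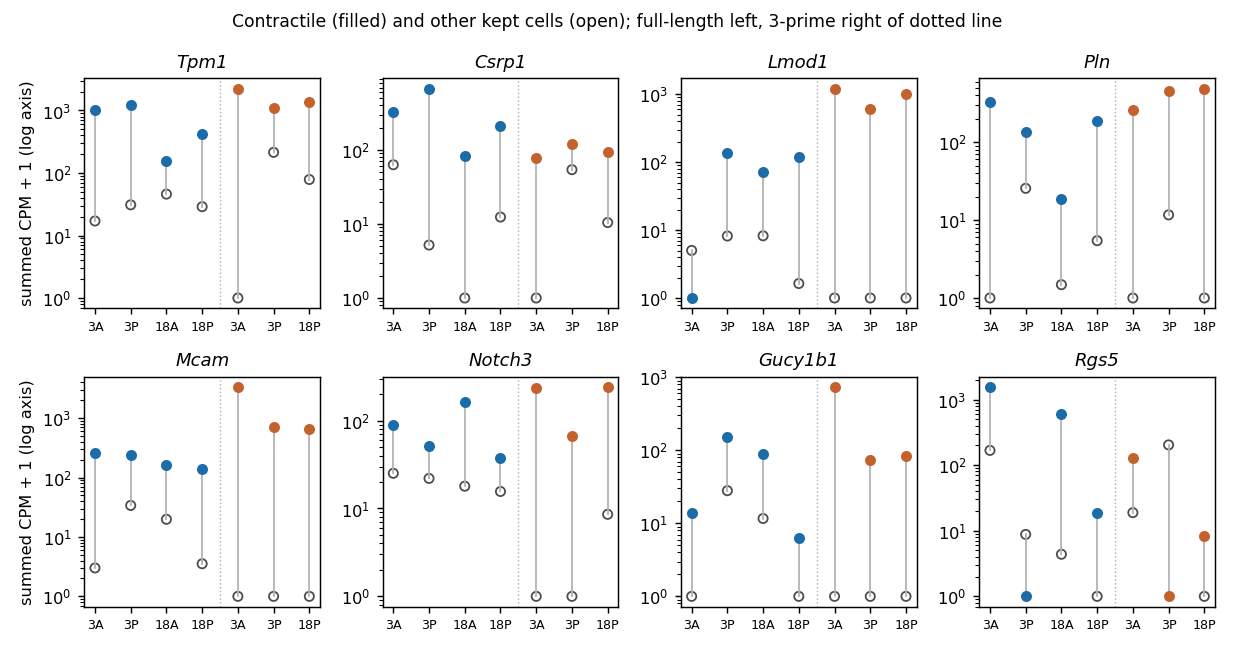
Summed CPM (1 CPM added, log axis) of 8 genes in contractile cells (filled) and other cells (open) of each group, full-length groups to the left and 3-prime groups to the right of the dotted line. Tpm1 and Csrp1 are higher in contractile cells in all 7 groups, while Rgs5 is at 0 in contractile cells of 3P in both library types.

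Broadly expressed relatives of the marker proteins did not show this pattern in both library types. Of 14 measured relatives, 7 were 2-fold higher and 1 lower in full-length libraries (median 0.92), and 3 were higher and 2 lower in 3-prime libraries (median -0.17). Myl6, the essential light chain that pairs with Myh11, was higher in both, with log2 ratios of 2.005 and 1.541. The cytoplasmic actin Actb had ratios of 0.82 and 0.945, and the cytoplasmic actin Actg1 had 0.64 in full-length and -1.59 in 3-prime libraries. Vimentin (Vim) was higher in full-length libraries, at 214.4 against 46.1 CPM, but was at 1358 against 1452 CPM in 3-prime libraries.

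Regulators of the program had few counts in both cell sets. Of 18 measured genes of SRF and its partners, 8 were 2-fold higher and 3 lower in full-length libraries (median 0.89), and of 16 in 3-prime libraries 10 were higher and 1 lower (median 1.597). Myocd, the myocardin partner of SRF, was at 13.7 CPM against 15.5 CPM in full-length libraries, with counts in 7 contractile and 9 other cells. In 3-prime libraries it was at 133.3 against 56.3 CPM, counted in 6 contractile cells with 80% of the counts in 1 of them. Heyl, a Notch target of mural cells, was higher in both, at 44.3 against 7.92 CPM and at 42.7 CPM against 0. Fhl1, a LIM protein of muscle, was at 48.9 against 12.9 CPM and at 141.9 against 34.2 CPM. Ebf1 was at 43.0 against 18.8 CPM, and without group 18P its full-length log2 ratio was -0.99.

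Calcium handling genes were near the background of all genes in full-length libraries and above it in 3-prime libraries. Of 20 measured in full-length libraries, 8 were 2-fold higher and 1 lower (median 0.59 against 0.52 for all genes), and of 15 in 3-prime libraries 10 were higher and 1 lower (median 2.6195). Pln, phospholamban, which holds back the calcium pump of the sarcoplasmic reticulum, was at 330.5 CPM in full-length 3A, 135.3 in 3P, 17.5 in 18A and 185.6 in 18P, against 0, 24.6, 0.48 and 4.44 CPM in other cells. In 3-prime contractile cells it was at 260 in 3A, 447.5 in 3P and 482 in 18P, against 0, 10.7 and 0 CPM. It was higher in contractile cells in all 7 groups. The pump itself, Atp2a2, had log2 ratios of 1.84 and 3.08, and the kinase Camk2g 3.01 and 3.54. The L-type calcium channel Cacna1c was sparse, with counts in 4 full-length and 3 3-prime contractile cells. The calcium-gated potassium channel gene Kcnma1 was lower in full-length libraries, with a log2 ratio of -2.65 (counts in 2 contractile and 16 other cells), but was counted in 7 contractile and 0 other cells of the 3-prime libraries. Its accessory subunit Kcnmb1 was higher in both, with ratios of 1.471 in full-length libraries and at least 26.3-fold in 3-prime libraries.

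The nitric oxide pathway was the list with the highest 3-prime median. All 10 measured members were 2-fold higher there, with a median log2 ratio of 5.49, or 4.61 with the 5 genes that had no count in other cells set at their bound. In full-length libraries 6 of 10 were higher and 1 lower, with a median of 1.44. Gucy1a1 and Gucy1b1 encode the subunits of soluble guanylate cyclase, the nitric oxide receptor. Gucy1a1 was at 127.1 CPM in full-length 3A, 7.12 in 3P, 0 in 18A and 53.8 in 18P, and at 496 CPM in 3-prime 3A, 73.9 in 3P and 225.2 in 18P. It had no count in the other cells of the 3-prime libraries, which gives at least an 80.04-fold higher level. Gucy1b1 was 2-fold higher in all 7 groups, but 66.2% of its full-length counts came from 1 cell. Prkg1, the kinase that cyclic GMP activates, differed between library types. It was at 1.303 against 20.0 CPM in full-length libraries (log2 ratio -3.19, counts in 2 contractile and 13 other cells) and at 73.3 CPM against 0 in 3-prime libraries (at least 24.3-fold).

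Receptors for constrictors had few counts. Of 8 measured genes of this list, 6 were 2-fold higher and 1 lower in full-length libraries (median 1.97), and 6 were higher and 0 lower in 3-prime libraries (median 2.147, or 1.75 at the bound). Npy1r, a receptor for the sympathetic cotransmitter neuropeptide Y, was at 25.4 against 5.68 CPM and at 156.6 against 24.1 CPM, with counts in 6 and 16 contractile cells. P2rx1, an ATP-gated channel, was at 20.9 against 8.43 CPM and at 23.3 CPM against 0. The endothelin receptor Ednra was at 11.7 against 10.5 CPM in full-length libraries and was counted in 4 contractile and 0 other cells in 3-prime libraries. Several receptors, among them Ednrb, Agtr1a, Avpr1a and Ptger3, had no count in 3-prime contractile cells.

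Notch3, the Notch receptor of mural cells, was higher in contractile cells of each of the 7 groups. Its full-length levels were 88.99 CPM in 3A, 49.9 in 3P, 162.6 in 18A and 36.3 in 18P, against 24.1, 21.0, 16.9 and 14.6 CPM in other cells. Its 3-prime levels were 232.1 in 3A, 65.1 in 3P and 238.3 in 18P, against 0, 0 and 7.58 CPM. Of 536 genes at 50 CPM or more in contractile cells of both library types, Notch3 was 1 of 24 (4.48%) that were 2-fold higher in every group. It was counted in 10 full-length and 19 3-prime contractile cells. In full-length libraries 58.2% of its counts in contractile cells came from 1 cell, and without the cells of conflicting age the log2 ratio was 0.83 in place of 2.212. Over the Notch list, 4 of 11 measured genes were 2-fold higher and 2 lower in full-length libraries (median 0.53, near that of all genes), and 6 of 10 were higher and 2 lower in 3-prime libraries (median 3.57, or 2.85 at the bound). Hey2, a Notch target, was counted in 4 full-length and 9 3-prime contractile cells.

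Growth factor and matrix genes were partly higher. Of 16 measured genes of TGF beta and PDGF signalling, 8 were 2-fold higher and 4 lower in full-length libraries (median 1.07), and 8 of 14 were higher and 0 lower in 3-prime libraries (median 3.33, or 2.471 at the bound). Tgfb3, a TGF beta ligand, was at 114.04 against 19.4 CPM and at 215.4 against 1.00 CPM, but 72.6% of its full-length counts came from 1 cell. Among matrix and adhesion genes, 15 of 27 were higher and 2 lower in full-length libraries (median 1.266), and 14 of 24 higher and 1 lower in 3-prime libraries (median 1.426). Mcam, the adhesion molecule CD146, was at 254.3 CPM in full-length 3A, 235.01 in 3P, 159.1 in 18A and 140 in 18P, against 2.01, 33.0, 19.3 and 3.17 CPM in other cells. Its 3-prime level was 3316 CPM in 3A, 712 in 3P and 651 in 18P with no count in other cells, at least 403.7-fold higher. It had the highest 3-prime ratio among the genes picked by the naming rule, with 49.6% of its counts in 1 cell. Col4a1, a basement membrane collagen, had ratios of 3.12 and 4.90, and Sparcl1, a secreted matrix glycoprotein, 3.01 and 3.40. Mgp, matrix Gla protein, did not pass 2-fold, at 440.5 against 405.7 CPM and at 762 against 586 CPM.

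**Figure D4:**
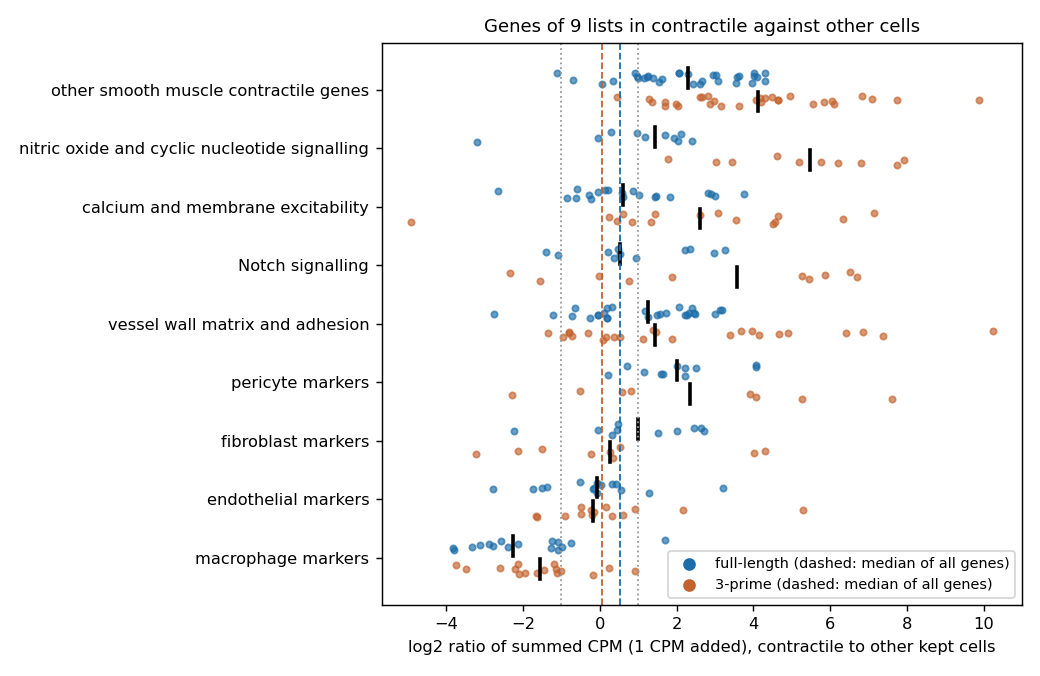
Log2 ratio of summed CPM (1 CPM added) of contractile to other cells for each measured gene of 9 lists (points), with list medians (black bars), 2-fold limits (dotted) and the median of all genes (dashed), by library type. The other contractile genes have medians of 2.299 and 4.12, and the macrophage markers -2.26 and -1.55.

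Pericyte markers were read in the same cells. In full-length libraries 9 of 11 measured pericyte markers were 2-fold higher and 0 lower (median 2.01), and in 3-prime libraries 4 of 8 were higher and 1 lower (median 2.354, or 1.508 at the bound). The list shares Notch3, Cspg4, Pdgfrb and Rgs5 with the lists above. The channel genes Kcnj8 and Abcc9, which define brain pericytes, had no count in 3-prime contractile cells, nor had Atp13a5 and Cox4i2. Kcnj8, Abcc9, Atp13a5 and Cox4i2 had no count in the other 3-prime cells either, while all 14 pericyte markers were counted in some full-length contractile cell. Rgs5, a regulator of G protein signalling found in pericytes and some smooth muscle, was counted in 8 full-length contractile cells and 58.2% of its counts came from 1 of them. Its full-length levels were 1538 CPM in 3A, 0 in 3P, 603 in 18A and 17.5 in 18P, and its 3-prime levels were 125.5 in 3A, 0 in 3P and 7.31 in 18P. Vtn, vitronectin, another pericyte gene, was likewise high in full-length 3A (1297 CPM) and 18A (190.5 CPM) and at 0 in 3P and 24.2 CPM in 18P. The summed pericyte list in full-length contractile cells was 3763 CPM in 3A, 263.5 in 3P, 1107 in 18A and 328.2 in 18P. The median over cells was 2583 CPM in 3A, 82.01 in 3P, 268.01 in 18A and 226.1 in 18P, so the gap between the regions at 18 months was in the sums and not in the medians. A single cell held 54.4% of all counts of 18A. In 3-prime libraries the sums were 1124 CPM in 3A, 662 in 3P and 626 in 18P.

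Markers of other cell types were read in the same cells. Of 16 measured macrophage markers, 13 were 2-fold lower and 1 higher in full-length libraries (median -2.26), and 12 were lower and 0 higher in 3-prime libraries (median -1.55). Cd74, the invariant chain of antigen presentation, was at 150.5 against 1118 CPM in full-length libraries. The exception Pf4 had 94.1% of its counts in contractile cells from 1 cell. All 16 macrophage markers were counted in some contractile cell of each library type, and their sum per full-length cell ran from 0 to 11072 CPM with a median of 191.6. When other cells with at least 3 macrophage markers were left out, which was added after the data were seen, the macrophage medians were 1.1698 and 5.19, of the opposite sign. Of endothelial markers, 2 of 15 were higher and 4 lower in full-length libraries (median -0.07 against 0.52 for all genes), and 2 of 14 higher and 2 lower in 3-prime libraries (median -0.17 against 0.06). The 3-prime median was -3.46 with at least 4 markers and 4.39 without group 18P. Of fibroblast markers, 5 of 10 were higher and 1 lower in full-length libraries (median 0.99), and 2 of 9 were higher and 3 lower in 3-prime libraries (median 0.28). Dpt was at 0 in full-length contractile cells, and Pdgfra, Dpt and Lum were at 0 in contractile and other cells of the 3-prime libraries. Without group 18P the 3-prime fibroblast median was 6.44. Erythrocyte genes were 2-fold lower in full-length contractile cells (4 of 4, median -3.38), and 1 of 4 was higher in 3-prime cells. Any erythrocyte count was found in 17 of 47 full-length contractile cells and in 52 other cells, with medians of 0 CPM in both sets and a highest cell of 557192 CPM among the other cells.

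Lists with few measured genes gave smaller counts. Of lymphocyte and plasma cell markers, 3 of 5 were 2-fold lower and 1 higher in full-length libraries, and 7 of 8 lower and 1 higher in 3-prime libraries. Granulocyte markers were lower for 3 of 4 in full-length libraries, while 2 of 3 were higher and 1 lower in 3-prime libraries, where their sum reached 170308 CPM in 1 contractile cell. Chemokines and cytokines were lower for 6 and higher for 4 of 13 in full-length libraries, and lower for 8 and higher for 1 of 10 in 3-prime libraries. Of 6 neuron markers in full-length libraries 5 were higher and 1 lower, and the 1 measured in 3-prime libraries was higher. Of 7 glia markers 4 were lower and 2 higher, and the 1 measured in 3-prime libraries was lower. Of 7 arachnoid-associated genes measured in 3-prime libraries, 5 were lower and 1 higher. No choroid plexus marker reached 10 CPM. The part of these cells in the results was not tested.

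The next counts ask for 50 CPM or more on the higher side in both library types, with no minimum number of cells. Across the 7 groups, 24 of 536 such genes (4.48%) were 2-fold higher in contractile cells in every group. Of 240 genes at that level in the other cells, 3 (1.25%) were 2-fold lower in every group. The 24 include Csrp1, Tpm1, Cald1, Flna, Nexn and Sncg, which are members of the contractile list, and the calcium genes Pln and Camk2g. Mcam, Notch3, Gucy1b1 and the gap junction gene Gja4 are also among them. They also include Ogn (osteoglycin), the complement inhibitor Serping1 and the adhesion adaptor Fermt2. In full-length contractile cells 66.2% of the Gucy1b1, 58.2% of the Notch3 and 50.6% of the Gja4 counts came from 1 cell. Plac9a and Plac9b are near-identical copies whose reads may be shared, so they count as uncertain. The 3 genes lower in every group were H2-Ab1, which presents antigen, Plek, a protein of blood cells, and Smpdl3a. These 27 genes were listed after their values were seen.

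Agreement between the library types over all genes was limited. Of 6414 genes measured in both, 899 were 2-fold higher in both, which is 44.0% of the 2044 higher in full-length and 38.1% of the 2362 higher in 3-prime libraries. The log2 ratio had the same sign in 53.7% of the genes, and 986 genes were 2-fold higher in 1 type and 2-fold lower in the other. Of the 12 genes named for the highest full-length ratios, 11 were 2-fold higher in 3-prime libraries as well. Of 11 genes named for the highest 3-prime ratios and measured in both, 8 were 2-fold higher in full-length libraries. Of the genes named as lower, 3 of 5 from full-length and 2 of 7 from 3-prime libraries were 2-fold lower in the other type. The 12 genes with the highest full-length ratios were, besides those above, Tns1 (tensin), Ccn2, Aspn (asporin), Marveld1 and the actin crosslinker Actn4. The 12 with the highest 3-prime ratios all had no count in the other cells. Besides those above they were Nr4a2, Ppp1cb (the catalytic subunit of myosin phosphatase), Uba2, Sncg, Luzp1, Dgkb, the proteoglycan Cspg4 and Rasl12, from at least 63.8-fold (Rasl12) to at least 160.9-fold (Nr4a2).

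Genes lower in contractile cells were fewer under the naming rule in full-length libraries. The 5 that met it were Sub1, Cd74, the lysozyme gene Lyz2, the histocompatibility gene H2-K1 and the endothelial phosphatase gene Ptprb, with log2 ratios from -4.09 (Sub1) to -1.42 (Ptprb). In 3-prime libraries the lowest ratios ran from -6.23 (Cmtm3) to -4.57 (Rac2, a GTPase of blood cells), and Mndal, Sart1, Ivns1abp, Zfp280d and Far1 lay between them.

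Among contractile cells themselves the levels of the contractile genes varied over more than an order of magnitude within a group. The summed level of the 32 other contractile genes per full-length cell ran from 410 to 22106 CPM in 3A (median 9017), from 152.6 to 43878 in 3P (19355), from 134.96 to 9180 in 18A (5047) and from 122.03 to 52632 in 18P (5830). Per 3-prime cell it ran from 1712 to 38588 CPM in 3A (median 26890), from 527 to 42263 in 3P (18828) and from 646 to 45000 in 18P (15607). The highest cell of 18A was below the median of 3P, and the ranges of all groups overlap.

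**Figure D5:**
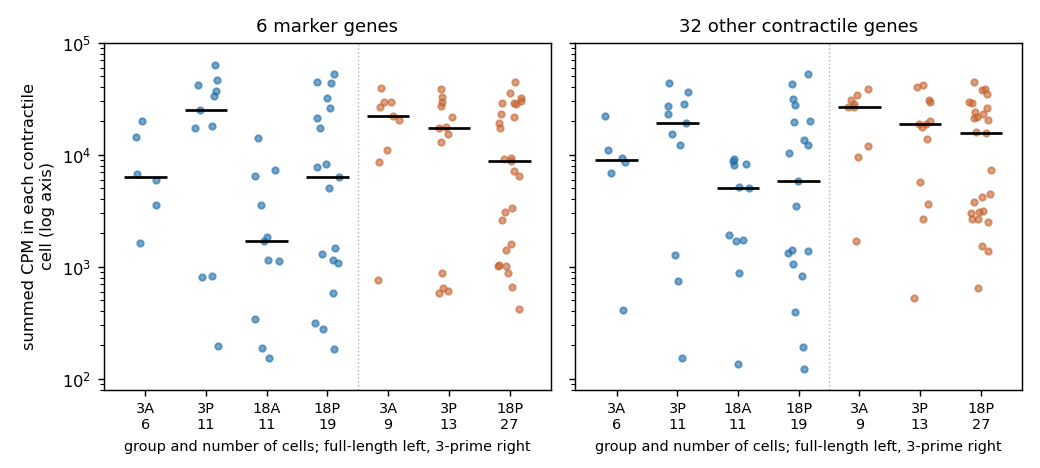
Summed CPM (log axis) of the 6 marker genes (left) and of 32 other contractile genes (right) in each contractile cell, by group, with the group median as a bar. For the 32 genes the full-length medians lie between 5047 CPM (18A) and 19355 CPM (3P), and the 3-prime medians between 15607 CPM (18P) and 26890 CPM (3A).

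Region was compared at 18 months in full-length libraries, where both groups hold at least 10 contractile cells. Of 12043 genes measured, 43.3% were 2-fold higher in posterior cells and 38.3% lower. By summed counts, the 32-gene contractile list was higher in posterior cells in 19 of 30 measured genes and lower in 5 (median log2 ratio 1.4703). The per-cell medians of this list, given above, lay close in 18A and 18P. Those of Acta2 were 324.4 CPM in 18A and 316.6 in 18P. The list median was not computed again without deep cells. The age field reads 3 months for 3 of 11 cells of 18A and 8 of 19 of 18P. The next 3 genes are among those named for the highest ratios. Dstn was at 712 CPM in 18P and 54.2 CPM in 18A, Tpm2 at 526 and 64.7 CPM, and Myl6 at 560 and 76.9 CPM. Their log2 ratios in contractile cells were 3.69, 3.004 and 2.85, and in the other cells -0.36, 0.11 and 0.81. A single cell held 54.4% of all counts of the 18A contractile cells. Without cells of over 100000 counts, the ratio was 3.75 for Dstn and 3.07 for Tpm2. With per-cell CPM averaged, it was 2.793 for Dstn, 2.243 for Tpm2 and 1.829 for Myl6, and with at least 4 markers it was 5.202, 4.12 and 3.76. Of 11 measured pericyte markers 4 were higher in posterior cells and 5 lower (median -0.63). Vtn was at 24.2 CPM in 18P and 190.5 CPM in 18A and Rgs5 at 17.5 and 603 CPM, with 69.7% and 80.9% of the 18A counts in 1 cell. Lower in posterior cells under the naming rule were Vwf (von Willebrand factor of endothelium), Son and the matrix gene Fn1, with ratios of -2.10, -1.97 and -1.67. The highest ratios were those of Ptgds (4.02), Ckb (3.91), which makes brain creatine kinase, and Dstn.

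Age was compared in posterior cells, and the full-length comparison shares its 18P cells with the comparison of regions. Of the 19 full-length contractile cells of 18P, 8 have an age field of 3 months, so the age of part of that side is in doubt. Of 11171 full-length genes, 46% were 2-fold higher at 18 months and 38.1% lower, and of 7860 3-prime genes 43.5% were higher and 32.8% lower. The contractile list had 4 of 29 genes higher and 16 lower at 18 months in full-length libraries (median -1.06), but 6 higher and 6 lower of 29 in 3-prime libraries (median 0.24). Cald1 was at 204.4 CPM at 18 months and 969 CPM at 3 months in full-length libraries, and at 2893 and 3171 CPM in 3-prime libraries. Tpm1 was at 412.9 and 1225 CPM in the former and at 1389 and 1095 CPM in the latter. Among the markers, the full-length log2 ratios were -1.20 for Acta2, -1.07 for Myl9 and 1.295 for Des. Without cells of over 100000 counts they were -0.05, 0.11 and 2.476. In 3-prime libraries Acta2 had a ratio of 0.62, which was -0.80 without such cells. With all contractile cells the median of the list thus had opposite signs in the library types.

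Ptgds, prostaglandin D synthase, was higher at 18 months in both library types. It was at 5606 CPM in 18P against 448.7 CPM in 3P of full-length contractile cells (log2 ratio 3.64, 3.28 to 4.03), and at 5550 against 246.4 CPM in 3-prime contractile cells (4.49, 4.31 to 4.68). It was counted in 19 of 19 and 27 of 27 contractile cells at 18 months and in 4 of 11 and 6 of 13 at 3 months. Among cells with at least 4 markers the ratios were 1.809 and 4.12. Over all alternatives, which include leaving out cells of conflicting age, the full-length ratio ran from 1.81 to 4.58. The other cells differed in the same direction, with ratios of 4.81 and 5.41, so the difference was not particular to contractile cells. Ptgds is abundant in arachnoid cells, and 3 of the 9 arachnoid-associated genes were 2-fold lower and 2 higher in full-length contractile against other cells.

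Other genes named for age differed between the library types. In full-length libraries Hsp90ab1, a heat shock protein gene, was at 330.9 against 28.5 CPM, and the lowest ratios were those of Zyx (zyxin of focal adhesions, -5.41), Aspn (-4.57), Map3k20 (-4.15), Anapc11 (-3.82), Mbnl1 (-3.79) and Fhl1 (-3.75). In 3-prime libraries the higher genes after Ptgds were Plac9b and Plac9a (4.42 and 4.33), the haemoglobin genes Hba-a2 and Hba-a1 (3.35 and 3.23) and Cox4i1 (2.91). Both pairs are near-identical copies, and haemoglobin is not a product of smooth muscle. The lowest were Plcb4 (-6.26), Wasf2 (-3.81), Golgb1 (-3.27), Anp32b (-3.08), Fyco1 (-3.0) and Col4a1 (-2.76). Col4a1 went the other way in full-length contractile cells, at 188.3 CPM at 18 months against 21.4 CPM at 3 months.

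Immediate early and stress genes, which dissociation can induce, were read as a measure of sample handling. Of 18 measured in full-length libraries, 6 were 2-fold higher and 2 lower in contractile cells (median 0.87 against 0.52 for all genes), and of 19 in 3-prime libraries 4 were higher and 3 lower (median 0.43 against 0.06). Fos was at 384.5 against 153.3 CPM and at 3768 against 3514 CPM. Its part in the results was not tested.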

How the data were processed

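The authors deposited raw read counts for 39179 genes in 472 cells as a single table. Alignment used STAR 2.7.0a on mm10, per the submitters' processing notes. How reads were counted, with or without strand and on which gene models, is not given in the sources used here. In 11 columns the values the authors deposited have a smallest entry over all genes of 1 to 16 where 0 is usual, and these were taken as a score, with how they were made not stated, and left out. Symbols were found for 37607 genes, and coordinates are from GENCODE M21. With at least 500 genes, 188 full-length and 73 3-prime cells were kept, 261 in all, of which 96 are contractile.

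The 6 markers, the gene lists and the rules were chosen with earlier results of these data known. Counts were summed over the cells of a side and divided by their total to give CPM. Ratios have 1 CPM added, and their intervals, from the exact conditional binomial, belong to the ratio without it. A gene without counts in the other cells was set against a floor of 3 counts over those cells. Against the other cells, the 12 highest and 8 lowest ratios were named. They needed 50 CPM on the higher side, counts in 5 cells and in 25% of that side's cells, at most 50% of counts from any cell, and the same 2-fold direction when per-cell CPM were averaged. Between groups the 6 highest and 6 lowest were named, with 100 CPM and counts in 50% of the higher group's cells. Marker, mitochondrial, ribosomal protein, predicted and unnamed genes were passed over. List members were also named. Some genes that met these rules are not reported here. Lists of lymphocyte, granulocyte, neuron, glia, choroid plexus and chemokine genes were read as well. Alternatives changed the number of markers or genes asked for, the totals, the added CPM, the minimum level and the cells or groups used, and the closing section gives their effect. Python 3.11.15, numpy 2.4.6, scipy 1.17.1, pandas 2.3.3 and matplotlib 3.10.9 were used. The ratio, its interval and the 2-fold call were tested on simulated data, and the naming rule was not. The simulated counts were independent Poisson draws, without PCR copies or spread between cells beyond counting. They check the calculation and not how well the intervals cover the real data.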

Additional observations from a re-analysis of the deposited data

Results flagged for a closer look

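Wells under the limit of 500 genes also held marker genes, in data that no comparison used. In full-length libraries 30 such wells (19.1% of them) had counts for at least 3 of the 6 markers. Their median total was 1397 counts, and their median summed marker level was 18768 CPM, from 1914 to 76375. In 3-prime libraries there were 11 such wells of 43 (25.6%), with a median total of 12616 counts and a median level of 8864 CPM, from 1913 to 26135. These wells have no control against which to read the values.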

How the results depend on the processing

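Each group is 1 sample and the ratios have no test, so what is given is how values moved. No paired analysis was possible because the groups hold 1 sample each and no result comes from a test; the number 1 or 2 in full-length titles is not explained by the labels, and 3-prime titles have none. The share of contractile cells was 44.1%, 17.0% and 9.04% in full-length and 79.5%, 47.9% and 35.6% in 3-prime libraries when 2, 4 or 5 markers were asked for, and 14.7% and 50.7% after thinning. Of the counts of 2-fold genes, full-length higher and lower became 2439 and 1114 with 10 CPM added and 7059 and 10229 with no minimum level. Full-length lower became 3995 with per-cell means, 8238 without mitochondrial and satellite genes in the totals and 3716 without cells of over 100000 counts. The 3-prime higher count became 5145 with no minimum. Between regions, lower became 6951 without mitochondrial and satellite genes, and higher and lower 9263 and 7254 with no minimum. Between ages in full-length libraries, higher became 8078 and 10086 in these settings. The cause was not tested.

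Counting only values that were past 2-fold as reported, 13 of 652 list medians under the alternatives reversed, as did 3 of 1497 gene ratios and 1 ratio between groups; sign changes of values nearer to 0 are not in these counts. Leaving out other cells with at least 3 macrophage markers, chosen after seeing the data, removes by construction the cells that carried these genes. It gave medians of 1.1698 (macrophage) and 0.84 (granulocyte) in full-length and 5.19 (macrophage) and 4.62 (chemokines) in 3-prime libraries, and a ratio of 1.115 for Cd74. The 3-prime granulocyte median was -5.63 with 4 markers, -6.96 with 1000 genes per cell and -4.58 without group 18P. The glia median was 0.92, 0.23, 0.33 and 3.61 with 4 markers, with 1000 genes, without mitochondrial genes and without group 3P. The neuron median was -1.47 and the Jag1 ratio -0.64 with 4 markers, and the arachnoid median 0.14 with per-cell means. In full-length libraries Ebf1 was -0.99 without group 18P, and Myl9 between ages was 0.11 without cells of over 100000 counts. The 3-prime granulocyte, glia and neuron medians rest on few measured genes. Apart from the removal of macrophage-marker cells, what caused the reversals was not tested. How far depth limits genes counted in fewer than 5 cells was not tested.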
